A study of Mus musculus with 12 samples.

Results

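The Notch receptors, ligands and Hes and Hey targets described here are 10 of the 38911 genes in the transcript tables of the 12 libraries. They are the ligands *Dll1*, *Dll4*, *Jag1* and *Jag2*, the receptors *Notch1*, *Notch2* and *Notch3*, and the target genes *Hes1*, *Hes5* and *Hey1*. They were chosen by name, and the counts of all RefSeq transcripts of a symbol were added up. The libraries came from gastruloids, aggregates of mouse embryonic stem (ES) cells that form mesodermal and neural cells in culture. All of them were seeded with 200 E14TG2a cells grown in 2iLIF medium, exposed to a Wnt agonist before treatment, and harvested on day 4. From day 3 to day 4 they received no glucose (0x), 1x glucose (21.25 mM), 3x glucose (63.75 mM), or 5 mM 2-deoxy-D-glucose (2-DG, a glucose analog) in 1x glucose medium. ES cell passages 13, 15 and 16 gave 1 library each to all 4 groups. Each library was made from the pooled gastruloids of 1 plate, so its values are averages over cell types. All cells were of this 1 line, and the labels name no vehicle for 2-DG.

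Notch signaling passes between touching cells. Delta and Jagged ligands on one cell bind Notch receptors on its neighbor, the receptor is cleaved, and its intracellular part joins the DNA-binding protein RBPJ at target genes such as those of the Hes and Hey families, which encode repressors. In the presomitic mesoderm the pathway takes part in the segmentation clock and in the formation of somite boundaries, and in neural tissue it keeps progenitors from becoming neurons. Sugars attached to the repeats of the receptor's extracellular part, by fucosyl-, glucosyl- and GlcNAc-transferases, are known to affect ligand binding.

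RBPJ binds DNA at sites with the core GTGGGAA. This sequence or its reverse complement TTCCCAC occurred in 2097 of 32851 RefSeq promoter windows (6.38%), each holding 250 bases before and 50 bases after a start site. Windows were found for 8 of the 10 genes, and the core was in that of *Hes5*. *Hes1* and *Hey1* were not among the windows. Windows of 3 targets are printed, chosen with their values known, because *Hes7* and *Nrarp* fell in 2-DG and *Hes5* was not called. *Hes5* has cores at -226 and -83 relative to the start site, *Hes7*, a clock gene, has one at -180, and the window of *Nrarp* did not hold these letters. Among other pathway genes, the windows of *Hey2* (cores at -207 and -4) and *Lfng* (-109) also held the core and are not printed. All are from GRCm38.p6 and the plus strand, and capitals mark the core on either strand. They lie at chr4:154960673-154960972 (*Hes5*), chr11:69120203-69120502 (*Hes7*) and chr2:25180508-25180807 (*Nrarp*).
Hes5: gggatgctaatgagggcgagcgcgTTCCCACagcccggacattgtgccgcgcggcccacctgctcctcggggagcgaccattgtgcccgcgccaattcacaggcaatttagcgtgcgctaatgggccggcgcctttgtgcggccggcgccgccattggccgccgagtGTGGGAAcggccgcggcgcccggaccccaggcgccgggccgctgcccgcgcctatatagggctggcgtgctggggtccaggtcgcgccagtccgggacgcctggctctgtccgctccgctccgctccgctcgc
Hes7: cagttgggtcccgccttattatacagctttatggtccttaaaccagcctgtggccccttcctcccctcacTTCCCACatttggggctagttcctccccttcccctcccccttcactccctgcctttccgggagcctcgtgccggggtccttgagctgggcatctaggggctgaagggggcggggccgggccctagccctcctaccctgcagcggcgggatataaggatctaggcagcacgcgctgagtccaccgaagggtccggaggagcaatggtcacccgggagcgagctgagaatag
Nrarp: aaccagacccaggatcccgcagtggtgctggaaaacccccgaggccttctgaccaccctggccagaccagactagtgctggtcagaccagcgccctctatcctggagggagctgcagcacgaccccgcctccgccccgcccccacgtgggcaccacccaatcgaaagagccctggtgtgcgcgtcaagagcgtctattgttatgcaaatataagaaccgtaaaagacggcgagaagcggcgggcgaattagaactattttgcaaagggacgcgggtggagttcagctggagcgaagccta
A match is a description of the letters and not a measured binding site.

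The libraries held 31902471 to 45956080 estimated counts. Levels below are CPM (counts scaled to a common library total) scaled with TMM factors, and calls are adjusted p-values under 0.05 from edgeR's quasi-likelihood test over 16966 genes, which all 10 genes entered. The passage 13 libraries stood apart from the others in the sums of somite, neural progenitor, early neuron and fibroblast feeder markers. The sums of presomitic mesoderm, embryonic stem cell, and endothelial and blood progenitor markers overlapped between passage 13 and the later passages. The summed level of 7 somite markers was 241 to 420 CPM in passage 13 (0x, 1x, 3x and 2-DG libraries together) and 663 to 1239 CPM in passages 15 and 16, and that of 9 neural progenitor markers was 281 to 379 CPM against 127 to 216 CPM. The sum of 6 early neuron markers was 52.0 to 65.8 CPM in passage 13 and 25.2 to 47.3 CPM in the later passages. Fibroblast feeder markers were low in all 12 libraries (9.57 to 16.2 CPM in sum over 6 genes, *Lum* at no more than 3 counts). Their sum was 9.57 to 11.2 CPM in passage 13 and 11.6 to 16.2 CPM in the later passages. The labels call the cells embryonic stem cells, and 6 markers of those summed to 33.0 to 70.7 CPM. In such bulk samples, fewer cells of a type and less RNA per cell cannot be told apart.

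Levels of different genes can be set beside each other only per length. In 1x glucose, *Dll1* was the most abundant per kilobase of transcript, with 193 ± 41.8 CPM per kb (SD, n = 3), followed by *Notch1* with 40.2 ± 16.8. *Hes5* (27.8 ± 9.35), *Hes1* (23.5 ± 6.14), *Notch3* (19.6 ± 1.99), *Hey1* (18.3 ± 5.51) and *Notch2* (11.5 ± 5.36 CPM per kb) came next. Below them were *Jag1* (7.74 ± 0.233), *Jag2* (2.23 ± 0.767) and *Dll4* (0.0668 ± 0.0510 CPM per kb). From *Notch1* down to *Jag1*, each gene's range overlapped that of the next, whereas *Dll1* lay above *Notch1*, *Jag1* above *Jag2* and *Jag2* above *Dll4* in every 1x glucose library. *Dll4* had 2 to 19 counts per library. The length is that of 1 RefSeq transcript per gene, which in *Dll1* and *Jag2* was not the one with the most counts.

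The passage of the ES cells separated most of the 10 genes. With treatment held fixed, 8 of the 10 differed between the 3 passages (edgeR quasi-likelihood F test), beside 46.2% of all genes tested. Each passage was a single biological replicate, whose 4 libraries had different treatments. Passage thus cannot be told apart from anything else that differed between these replicates. The p-values do not measure the spread between cultures of the same passage. *Dll1*, *Notch1*, *Notch2*, *Notch3* and *Hey1* were lower in passage 13 than in at least one later passage, and *Jag2*, *Hes1* and *Hes5* were higher. *Jag1* (adjusted p = 0.0888, edgeR) and *Dll4* (adjusted p = 0.483, edgeR) were not called. In 5 genes the 4 passage 13 libraries did not overlap the 8 others, with *Dll1*, *Notch1* and *Notch2* below and *Hes1* and *Hes5* above them, beside 14.1% of all genes tested.

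*Notch1* (chr2:26457902-26503822, GRCm38.p6), a receptor of presomitic and neural progenitor cells, was at 265, 199, 232 and 197 CPM in the 0x, 1x, 3x and 2-DG libraries of passage 13. The same libraries had 580.5, 489, 468 and 490.5 CPM in passage 15 and 458, 456, 422 and 369 CPM in passage 16. All 4 passage 13 libraries were below all others, whatever the treatment. The log2 difference from passage 13 was 1.19 ± 0.07 (SE) in passage 15 and 0.94 ± 0.06 in passage 16 (adjusted p = 1.54e-06 and 3.81e-06, edgeR). *Notch2*, a related receptor, was at 75.3, 59.8, 68.5 and 79.1 CPM in passage 13, 209, 171, 155 and 159.9 CPM in passage 15, and 140.3, 132, 124 and 111 CPM in passage 16. Here the passages formed an order with no overlap, 13 below 16 and 16 below 15. The differences from passage 13 were 1.29 ± 0.09 and 0.84 ± 0.09 on the log2 scale, and that of passage 16 from passage 15 was -0.45 ± 0.08 (adjusted p = 0.0211, edgeR). *Notch3* ranged from 129 to 164 CPM in passage 13, 151 to 176 CPM in passage 15 and 157 to 176 CPM in passage 16. Its ranges overlapped, and only passage 16 was called against passage 13, at 0.20 ± 0.04 on the log2 scale (adjusted p = 0.00426, edgeR).

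Among the ligands, *Dll1*, which marks the presomitic mesoderm and neural progenitors, was at 607, 519, 538 and 493 CPM in the 0x, 1x, 3x and 2-DG libraries of passage 13. It was at 813, 772, 737 and 814 CPM in passage 15 and at 818, 785, 749 and 719 CPM in passage 16. Passage 13 lay below both, by 0.54 ± 0.05 and 0.51 ± 0.05 on the log2 scale (adjusted p = 1.42e-05 and 2.01e-05, edgeR), while passages 15 and 16 differed by less than their SE. *Jag2* went the other way, with 13.7, 15.7, 18.4 and 18.8 CPM in passage 13, 8.03, 7.97, 9.26 and 12.7 CPM in passage 15, and 9.34, 10.6, 12.7 and 15.9 CPM in passage 16. Within each treatment passage 13 was highest and passage 15 lowest. The log2 differences from passage 13 were -0.82 ± 0.08 and -0.47 ± 0.08, and passage 16 was 0.35 ± 0.08 above passage 15 (adjusted p = 0.0437, edgeR).

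The targets *Hes1* and *Hes5* shared one pattern and *Hey1* had another. *Hes1*, a repressor with oscillating expression in several progenitors, was at 43.3, 44.8, 50.7 and 46.7 CPM in passage 13, 32.5, 29.6, 31.4 and 34.3 CPM in passage 15, and 28.0, 28.9, 30.7 and 35.0 CPM in passage 16. *Hes5*, a neural progenitor target, was at 37.4, 49.0, 46.6 and 44.4 CPM in passage 13, 27.6, 29.9, 31.3 and 30.4 CPM in passage 15, and 25.3, 27.2, 27.3 and 32.2 CPM in passage 16. In both genes each passage 13 library exceeded every other library. The log2 differences of passages 15 and 16 from passage 13 were -0.54 ± 0.06 and -0.60 ± 0.06 for *Hes1*, and -0.57 ± 0.06 and -0.66 ± 0.06 for *Hes5*. *Hey1*, a target in somites and vessels, was instead lower in passage 13 in each treatment, by 0.71 ± 0.11 against passage 15 and 0.31 ± 0.11 against passage 16 (adjusted p = 0.000652 and 0.0492, edgeR).

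**Figure D1:**
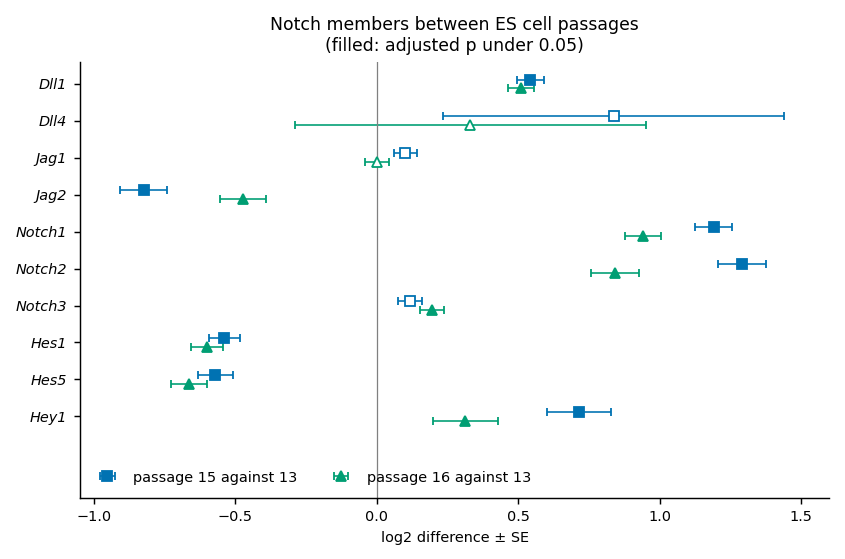
Log2 difference ± SE of passage 15 (squares) and passage 16 (triangles) from passage 13 for each of the 10 genes, with treatment held fixed (n = 4 libraries per passage, each of a different treatment). Filled symbols passed an adjusted p of 0.05. *Notch1* and *Notch2* lie farthest to the right, and *Jag2*, *Hes1* and *Hes5* lie left of 0 in both passages.

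Of the pairwise tests, passage 15 against 13 called 7 of the 10 genes (41.8% of all genes tested), passage 16 against 13 called 8 (40.2%), and passage 16 against 15 called 2, *Notch2* and *Jag2* (4.20%). In 6 of the 10 genes the means of the 3 passages spanned a wider log2 range than those of the 4 treatments. *Dll4*, *Jag1*, *Notch3* and *Hey1* were the exceptions. No share over all genes is given beside this count. A passage mean averages 4 libraries and a treatment mean 3, so the ranges are not of like kind. Of the 56 other Notch pathway genes tested, 36 differed between passages by the F test, beside the 46.2% of all genes. *Lfng*, the Fringe transferase of the segmentation clock, was at 66.3 to 73.2 CPM in passage 13, 142 to 211 CPM in passage 15 and 95.8 to 159 CPM in passage 16. *Mfng*, another Fringe gene, was opposite, with 9.21 to 13.8 CPM in passage 13 and 3.33 to 7.22 CPM in the later ones. The log2 difference of passage 15 from passage 13 was 1.33 ± 0.08 for *Lfng* and -1.27 ± 0.10 for *Mfng*. All 10 genes of the nuclear complex around *Rbpj* were called by the same test. The somite, neural progenitor, early neuron and fibroblast feeder markers moved between the same libraries, as given above. Their part in these differences was not tested.

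**Figure D2:**
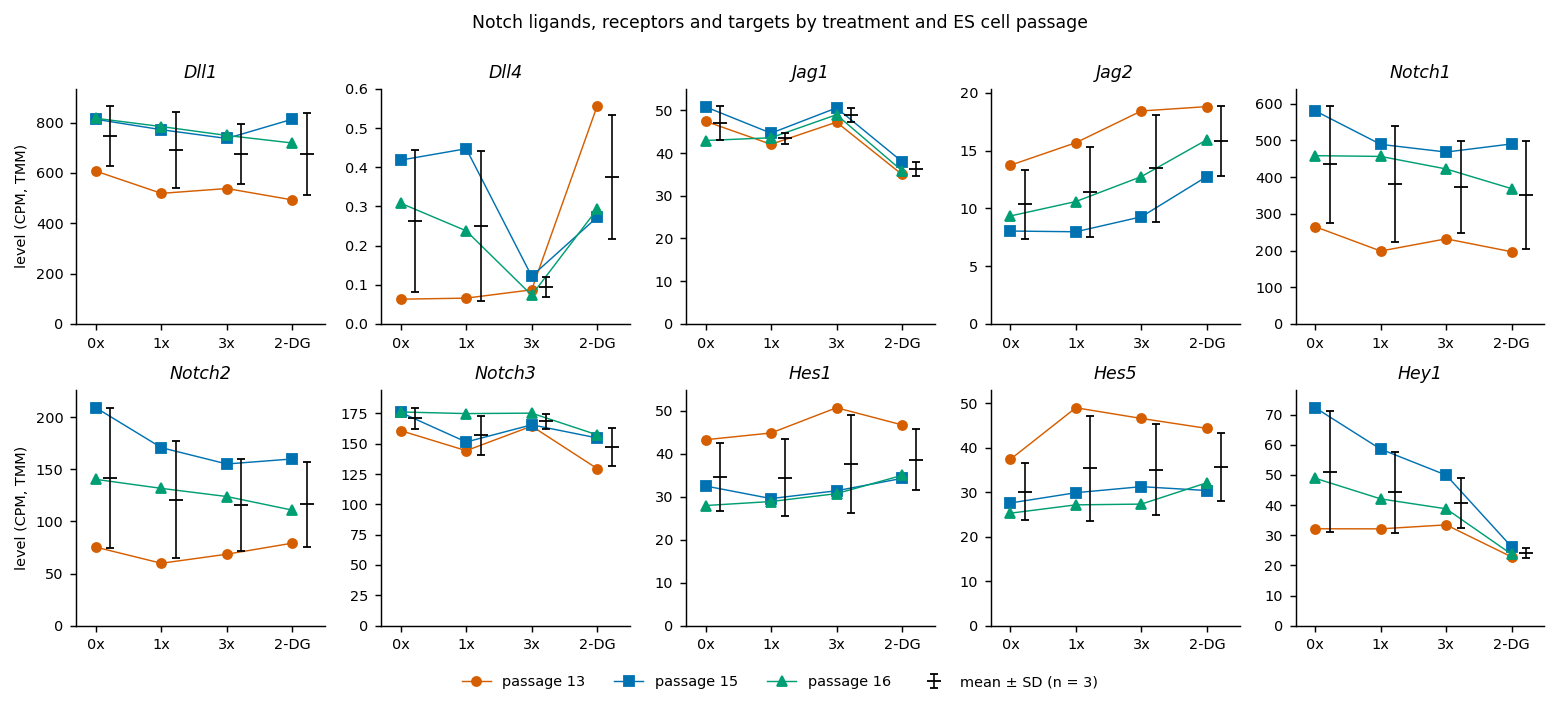
Level (CPM, linear axis from 0) of each of the 10 genes in the 12 libraries, by treatment, with 1 color and symbol per ES cell passage and the mean ± SD of each treatment (n = 3) beside them in black. The passage 13 line lies apart in *Dll1*, *Notch1*, *Notch2*, *Hes1* and *Hes5*, whereas the 2-DG libraries are the 3 lowest in *Jag1* and *Hey1*.

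In 2-DG compared with 1x glucose, 1 of the 10 genes was called in the fit without the passage, *Jag1*, which fell. This count stands beside 17.6% of all genes tested in either direction and 8.51% lower. The median log2 fold change of the 10 genes was -0.04, beside 0.00 over all genes tested. The groups did not overlap in 2 genes, *Jag1* and *Hey1*, beside 35.4% of all genes tested. Differences between passages remain in the spread of this fit, whereas the passage test held treatment fixed. The counts called by treatment and by passage are therefore not comparable. With the passage as a replicate block, 4 of the 10 genes were called, as given below.

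*Jag1* (chr2:137081451-137116520, GRCm38.p6), a Notch ligand of neural and vascular tissue, was at 42.0, 44.6 and 43.6 CPM in 1x glucose (passages 13, 15 and 16) and at 35.0, 38.0 and 35.9 CPM in 2-DG. It was at 47.4, 50.8 and 42.9 CPM in 0x glucose and at 47.2, 50.6 and 49.0 CPM in 3x glucose. Every 2-DG library was below every other library, and the fall was of like size in each passage (log2 ratios of -0.27, -0.23 and -0.28). The mean level was 43.4 ± 1.31 CPM in 1x glucose and 36.3 ± 1.55 CPM in 2-DG (SD, n = 3 libraries), and the log2 fold change was -0.26 ± 0.07 (SE, adjusted p = 0.0223, edgeR). The call was lost when the 1x glucose library of passage 15 or 16, or the 2-DG library of passage 13 or 16, was left out (adjusted p = 0.0739, 0.0532, 0.0718 and 0.0712, edgeR). It was also lost without the passage 13 libraries (log2 fold change -0.26, adjusted p = 0.0620, edgeR) and in the fit of each gene's most abundant transcript (-0.26, adjusted p = 0.114, edgeR). The 3 genes whose pattern over the 12 libraries was most like that of *Jag1* were *Gtpbp1*, *Zfp334* and *Gspt1*, with root mean square differences of 0.0619, 0.0686 and 0.0698 between centered log2 CPM values, out of 13693 genes compared.

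*Hey1* (chr3:8663359-8667038, GRCm38.p6) had the largest fitted fold change of the 10 genes. It was at 32.1, 58.6 and 42.1 CPM in 1x glucose and at 22.8, 26.1 and 23.7 CPM in 2-DG. In 0x glucose it was at 32.2, 72.3 and 48.9 CPM and in 3x glucose at 33.4, 49.95 and 38.8 CPM. All 3 2-DG libraries were thus below the 9 others. The log2 fold change against 1x glucose was -0.87 ± 0.28 and was not called (adjusted p = 0.0592, edgeR), with ratios of -0.49, -1.16 and -0.83 in passages 13, 15 and 16. It was called in several other fits. The adjusted p was 0.000656 with the passage as a replicate block, 0.00938 with DESeq2, 0.0431 in a fit of only the 2 groups, 0.0395 without the 1x glucose library of passage 13, and 0.0161 without the passage 13 libraries.

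The replicate block changed more calls. With it, 41.3% of all genes were called, and 4 of the 10 genes were, namely *Jag1* (adjusted p = 0.00140, edgeR) and *Hey1* lower and *Jag2* and *Hes1* higher. *Jag2* was at 15.7, 7.97 and 10.6 CPM in 1x glucose and at 18.8, 12.7 and 15.9 CPM in 2-DG, higher in each passage, with a log2 difference of 0.51 in the block (adjusted p = 0.00154, edgeR) and 0.47 ± 0.31 without it (adjusted p = 0.333, edgeR). *Hes1* was also higher in each passage, with log2 ratios of 0.06, 0.21 and 0.28, and was called only with the block (adjusted p = 0.0413, edgeR). In both genes the 2 groups overlapped.

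The remaining 6 genes were not called in 2-DG against 1x glucose in any fit tried. The fitted log2 fold changes were -0.03 ± 0.22 for *Dll1*, -0.12 ± 0.43 for *Notch1*, -0.05 ± 0.46 for *Notch2*, -0.09 ± 0.09 for *Notch3*, 0.01 ± 0.27 for *Hes5* and 0.60 ± 0.65 for *Dll4*. *Dll1*, for example, was at 519, 772 and 785 CPM in 1x glucose and 493, 814 and 719 CPM in 2-DG, with overlapping ranges. For *Dll4*, the libraries held 3, 17 and 11 counts in 1x glucose and 19, 10 and 11 counts in 2-DG, and the groups overlapped. *Notch1* and *Notch2* had the widest SE after *Dll4*.

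**Figure D3:**
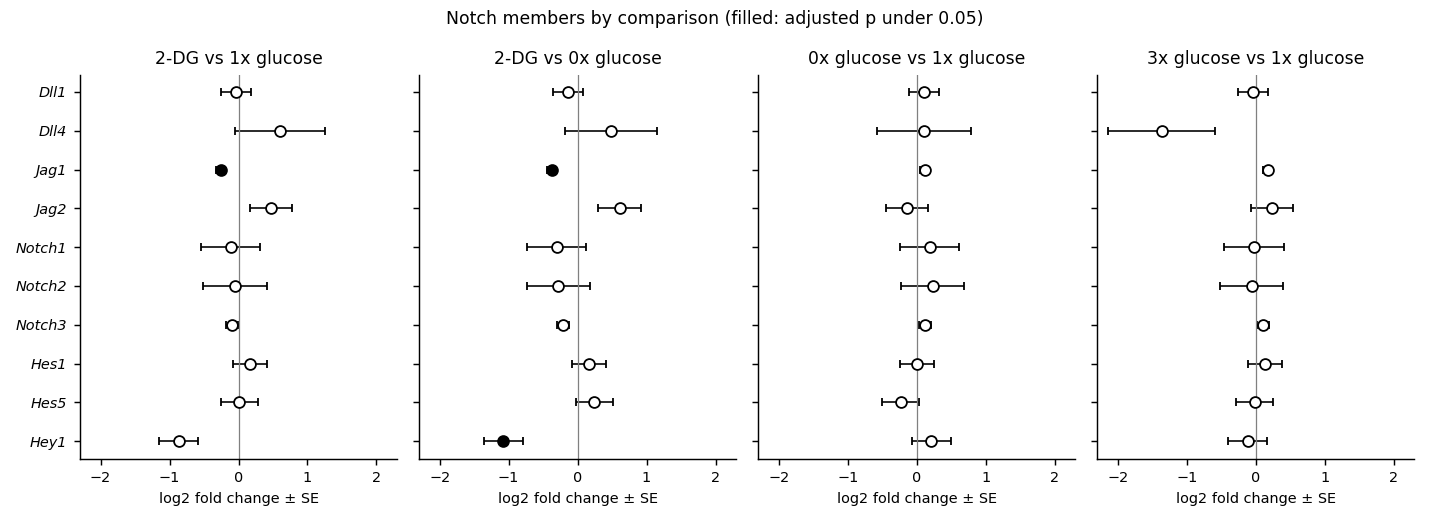
Log2 fold change ± SE of each of the 10 genes in the 4 comparisons (n = 3 libraries per group, fit without the passage). Filled symbols passed an adjusted p of 0.05. *Jag1* is filled in both comparisons with 2-DG and *Hey1* in 2-DG against 0x glucose, and no symbol is filled for 0x or 3x glucose.

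2-DG was also compared with 0x glucose, which sets the analog beside the absence of glucose. The 2 comparisons with 2-DG share the 2-DG libraries, so their values are given side by side and not as independent evidence. Of the 10 genes, 2 were called, *Jag1* and *Hey1*, both lower in 2-DG, beside 18.9% of all genes tested in either direction and 9.04% lower. *Jag1* was at 36.3 ± 1.55 CPM in 2-DG and 47.1 ± 3.95 CPM in 0x glucose (log2 fold change -0.38 ± 0.07, adjusted p = 0.00365, edgeR), and *Hey1* at 24.2 ± 1.72 and 51.1 ± 20.2 CPM (-1.08 ± 0.29, adjusted p = 0.0246, edgeR). Leaving out single libraries kept *Jag1* called each time. The call of *Hey1* was lost without the 0x glucose library of passage 15 or 16 (adjusted p = 0.0905 and 0.0514, edgeR), or without any 1 of the 2-DG libraries (0.0771, 0.0573 and 0.0724 for passages 13, 15 and 16), and with the most abundant transcript alone (0.124). Groups did not overlap in 3 genes, *Jag1*, *Hey1* and *Notch3*, beside 37.9% of all genes tested. *Notch3* was at 161, 176 and 176 CPM in 0x glucose and 129, 155 and 157 CPM in 2-DG (-0.22 ± 0.09, adjusted p = 0.110, edgeR).

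With the replicate block, 7 of the 10 genes were called in 2-DG against 0x glucose, beside 43.1% of all genes tested. These were *Jag1*, *Hey1*, *Dll1* (adjusted p = 0.0327, edgeR), *Notch1* (adjusted p = 0.00481) and *Notch3* (adjusted p = 0.00487) lower, and *Jag2* (adjusted p = 0.000403) and *Hes5* (adjusted p = 0.0190) higher in 2-DG. The log2 differences in the block were -0.16 for *Dll1*, -0.33 for *Notch1*, -0.22 for *Notch3*, 0.63 for *Jag2* and 0.25 for *Hes5*. Without the passage 13 libraries 3 were called, *Jag1*, *Hey1* and *Jag2*, and no share of all genes is given for that fit.

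In 0x against 1x glucose, 0 of the 10 were called by edgeR, 0 had an unadjusted p under 0.05, and DESeq2 also called 0, beside 0.0118% of all genes tested. Fitted log2 fold changes ran from -0.23 ± 0.27 for *Hes5* to 0.23 ± 0.46 for *Notch2*, and *Dll1*, *Notch1*, *Notch2*, *Notch3* and *Hey1* were above and *Hes5* below 1x glucose in all 3 passages. In 3x against 1x glucose, 0 of the 10 were called by edgeR or DESeq2, beside 0% of all genes tested, and 1 had an unadjusted p under 0.05, as had 178 of all 16966 genes tested. That gene was *Jag1*, with 48.9 ± 1.67 CPM in 3x glucose and 43.4 ± 1.31 CPM in 1x glucose, groups that did not overlap, beside 4.47% of all genes tested (log2 fold change 0.17 ± 0.07, unadjusted p = 0.0244, adjusted p = 1, edgeR). With the replicate block, 0 of the 10 genes were called in 0x or 3x glucose, beside 0.0177% and 0% of all genes tested. *Dll4* had 3, 4 and 3 counts in 3x glucose, near the floor of 3 counts, and its fitted value there is not read.

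The wider pathway was described with 57 other genes in 6 groups by role, of which 56 were tested. In 2-DG against 1x glucose 8 were called, 4 higher (beside 9.12% of all genes tested) and 4 lower. The genes that fell were *Nrarp*, *Hes7*, *Notch4* and *Eogt*, and those that rose were *Gmds*, *Poglut3*, *Dtx3* and *Numbl*. Among 6 Hes, Hey and *Nrarp* genes listed as targets outside the core list, 2 fell and 0 were called higher. Whether Notch controls each of them here was not tested. *Hes3*, a neural progenitor repressor, was higher in all 3 passages, with log2 ratios of 1.41, 1.71 and 1.49 and groups that did not overlap, but was not called (adjusted p = 0.0620, edgeR). It was called with the replicate block (adjusted p = 8.20e-06, edgeR), with DESeq2 (adjusted p = 0.0337) and without the passage 13 libraries (adjusted p = 0.000279, edgeR). Of 3 tested further ligands and receptors 1 fell, of 14 genes of sugar transfer 1 fell and 2 rose, and of 13 genes of ligand and receptor turnover 2 rose. Of the 10 genes of receptor cleavage and of the 10 of the nuclear complex, 0 were called in either list by edgeR or had an unadjusted p under 0.05, and DESeq2 called 0. The replicate block called *Adam17* and *Psen2* of the cleavage list and *Ep300*, *Kat2b*, *Kdm5a* and *Maml2* of the nuclear complex, and *Kat2b* was also called without the passage 13 libraries (adjusted p = 0.0422, edgeR). No gene of the 56 was called in 0x or 3x against 1x glucose by edgeR or DESeq2.

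*Nrarp* encodes an ankyrin repeat protein that is induced by Notch and dampens it. It was at 243, 300.5 and 259 CPM in 1x glucose, 244, 306 and 273 CPM in 0x glucose, 242, 299 and 255 CPM in 3x glucose, and 119.7, 142 and 146 CPM in 2-DG. The glucose groups were alike within each passage, and every 2-DG library lay below all of them. The mean fell from 268 ± 29.6 to 136 ± 14.01 CPM, a log2 fold change of -0.98 ± 0.12 (adjusted p = 0.000561, edgeR). *Hes7*, the repressor at the center of the mouse segmentation clock, was at 219, 169.7 and 187 CPM in 1x glucose and at 94.6, 122 and 128 CPM in 2-DG. The fall was steepest in passage 13, with log2 ratios of -1.21, -0.48 and -0.54, and the fitted change was -0.74 ± 0.14 (adjusted p = 0.00508, edgeR). Of the 3 targets whose windows are printed above, these 2 fell, and *Hes5* was at 49.0, 29.9 and 27.2 CPM in 1x glucose and 44.4, 30.4 and 32.2 CPM in 2-DG.

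**Figure D4:**
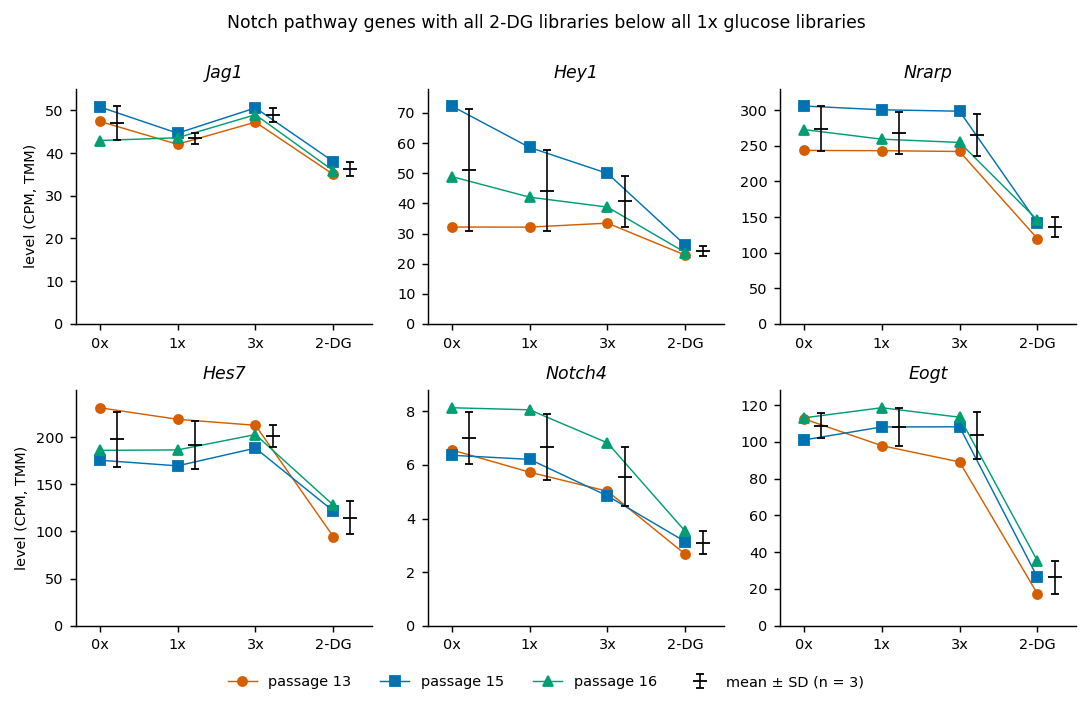
Level (CPM, linear axis from 0) of *Jag1*, *Hey1*, *Nrarp*, *Hes7*, *Notch4* and *Eogt* in the 12 libraries, by treatment and ES cell passage, with the mean ± SD (n = 3) in black. All 3 2-DG libraries lie below all glucose libraries in each of the 6 genes. *Hey1* was not called against 1x glucose in the fit without the passage.

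*Notch4*, a receptor best known from endothelium, was at 5.73, 6.21 and 8.06 CPM in 1x glucose and 2.66, 3.13 and 3.52 CPM in 2-DG (log2 fold change -1.10 ± 0.19, adjusted p = 0.00358, edgeR). *Eogt*, which attaches GlcNAc to the repeats of Notch receptors in the endoplasmic reticulum, was at 98.0, 108 and 119 CPM in 1x glucose and 17.3, 26.3 and 35.2 CPM in 2-DG. This was the largest change of the pathway genes called, at -2.04 ± 0.21 (adjusted p = 0.000219, edgeR). *Gmds*, which makes a precursor of GDP-fucose from GDP-mannose, rose from 15.7 ± 1.03 to 24.0 ± 1.55 CPM (0.62 ± 0.10, adjusted p = 0.00228, edgeR), and *Poglut3*, a glucosyltransferase, from 31.3 ± 0.545 to 37.6 ± 2.60 CPM (0.26 ± 0.07, adjusted p = 0.0281, edgeR). *Dtx3*, a Deltex ubiquitin ligase, went from 88.1 ± 2.57 to 121 ± 11.3 CPM and *Numbl*, a relative of the Notch inhibitor Numb, from 23.1 ± 1.16 to 31.5 ± 1.97 CPM (adjusted p = 0.00125 and 0.00885, edgeR). With each gene's most abundant transcript alone, the calls of *Notch4*, *Gmds*, *Poglut3*, *Dtx3* and *Numbl* were lost, and *Dtx3* changed sign to -0.09. *Poglut3* was called in only 1 of the 6 fits that left out a library, the one without the 2-DG library of passage 15.

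The clock genes *Dll3* and *Lfng* were lower in 2-DG in each passage without a call. *Dll3*, a Delta-like protein of the presomitic mesoderm, was at 185, 277 and 289 CPM in 1x glucose and 124, 241 and 205 CPM in 2-DG (-0.40 ± 0.27, adjusted p = 0.357, edgeR). *Lfng* was at 70.0, 195 and 145 CPM in 1x glucose and 66.3, 142 and 95.8 CPM in 2-DG (-0.43 ± 0.47, adjusted p = 0.593, edgeR). Both were called lower with the replicate block (adjusted p = 0.000829 and 0.00558, edgeR), and with it 26 of the 56 genes were called, 16 higher and 10 lower, beside 41.3% of all genes tested. In 2-DG against 0x glucose 9 of the 56 were called. The 5 higher (beside 9.86% of all genes tested) were *Gmds*, *Dtx3*, *Numbl*, *Hes3* (1.82 ± 0.51, adjusted p = 0.0300) and *Neurl1a* (0.45 ± 0.13, adjusted p = 0.0332, edgeR), and the 4 lower were again *Nrarp*, *Hes7*, *Notch4* and *Eogt*. *Hes3* was at 13.4, 4.39 and 4.96 CPM in 0x glucose, 14.8, 6.39 and 7.11 CPM in 1x glucose and 39.3, 20.9 and 19.9 CPM in 2-DG. It is also one of the neural progenitor markers below. Its call did not hold in 4 of 6 fits with a library left out (those without the 2-DG library of passage 13 or 15 or the 0x glucose library of passage 15 or 16, adjusted p up to 0.107, edgeR). That of *Neurl1a*, a ubiquitin ligase of Notch ligands, held in 0 of the 6 (adjusted p of 0.0537 to 0.114, edgeR).

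**Figure D5:**
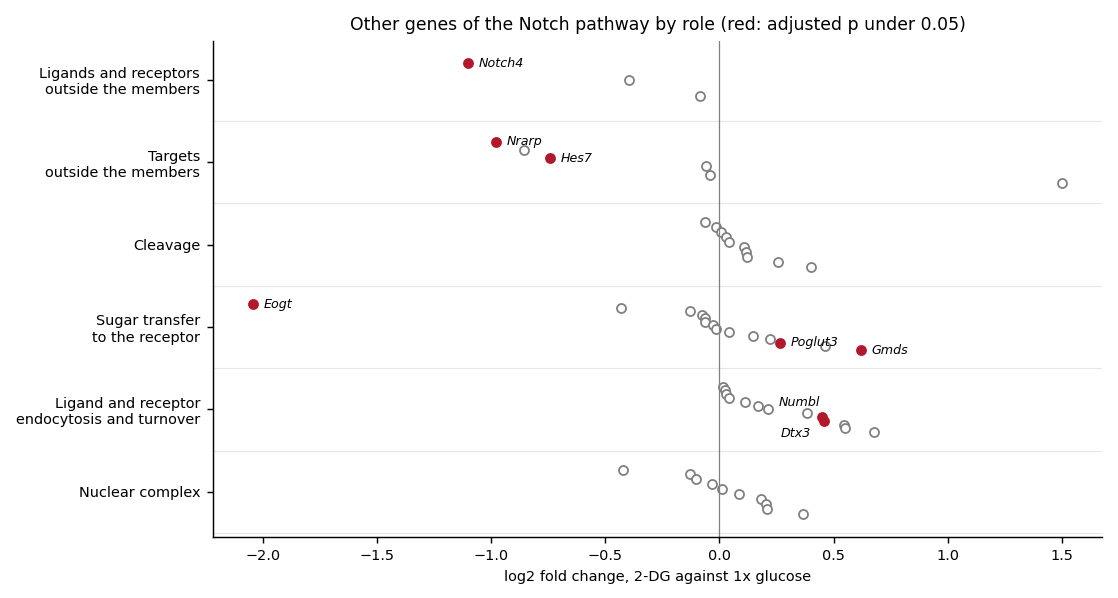
Fitted log2 fold change in 2-DG against 1x glucose of the 56 tested pathway genes outside the core list, 1 point per gene, in 6 rows by role. Red points passed an adjusted p of 0.05 and are named. The red points of ligands, receptors and targets lie left of 0, and both of ligand and receptor turnover lie right of it.

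Some cell type markers also differed in 2-DG. Over all genes tested, 9.12% were called higher and 8.51% lower in 2-DG than in 1x glucose, and 35.4% had groups that did not overlap. A single call in a list this short is not read as a change of the cell type. Of 9 neural progenitor markers 3 were called higher in 2-DG than in 1x glucose, *Sox1*, *Pax6* and *Neurog2*, and the summed level of the list was 192 to 379 CPM in 2-DG and 157 to 299 CPM in 1x glucose. Of the same list *Nes* had a log2 fold change of -0.46 ± 0.19 with groups that did not overlap (adjusted p = 0.127, edgeR), and *Olig2* had one of -1.47 ± 1.37 (adjusted p = 0.521, edgeR). Of 5 tested early neuron markers 1 was called higher, *Tubb3*. Fitted values were above 0 for 4 of these 5 and below 0 for 1, *Elavl4* (-0.74 ± 0.53, adjusted p = 0.389, edgeR). Of 7 presomitic mesoderm markers 2 were called lower, *T* (225 ± 84.6 to 75.9 ± 17.5 CPM) and *Cyp26a1*, and the sum was 331 to 560.1 CPM in 2-DG and 748 to 848 CPM in 1x glucose. Of that list *Mesp2* and *Ripply2* were higher in passage 13 (log2 ratios of 1.65 and 3.09) and lower in the later passages. The 7 somite markers had 0 calls by edgeR and 0 at an unadjusted p under 0.05. Their sums were 420 to 956 CPM in 2-DG and 241 to 1103 CPM in 1x glucose. In passage 13 alone the sum was 420 CPM in 2-DG and 241 CPM in 1x glucose. *Meox1*, *Tcf15*, *Foxc2* and *Pax3* had log2 ratios of 1.63, 1.52, 1.18 and 1.02 there and below 0 in both later passages. *Uncx* was at -0.31 there, and each ratio compares 1 library with 1 library. Of 7 tested endothelial and blood progenitor markers 1 was called lower, *Etv2*, with sums over the 8 listed genes of 2.10 to 2.34 CPM in 2-DG and 4.00 to 11.5 CPM in 1x glucose. Fitted values were below 0 for 6 of these 7 and above 0 for 1, *Pecam1* (0.42 ± 0.42, adjusted p = 0.554, edgeR). Of 6 embryonic stem cell markers 1 was called lower, *Dppa5a* (log2 fold change -1.01, adjusted p = 0.00836, edgeR). With it, 4 had an unadjusted p under 0.05 and groups that did not overlap. The others were *Pou5f1*, *Nanog* and *Esrrb*, which were higher in 2-DG without a call (0.55 ± 0.23, 0.66 ± 0.29 and 0.59 ± 0.23). The sum of that list was 57.4 to 70.7 CPM in 2-DG and 41.7 to 58.7 CPM in 1x glucose. Against 0x glucose *Pou5f1* and *Nanog* were called higher in 2-DG, beside 9.86% of all genes tested. *Nanog* was at 1.51 ± 0.559 CPM in 0x glucose, 2.90 ± 0.421 CPM in 1x glucose and 4.59 ± 0.577 CPM in 2-DG. In 0x against 1x glucose 3 of the 6 stem cell markers had an unadjusted p under 0.05 and 0 were called by edgeR. The calls in the neural, presomitic, endothelial and stem cell lists lay between the same libraries as those of *Jag1*, *Nrarp*, *Hes7* and *Notch4* and the lower level of *Hey1*, and their part in those differences was not tested.

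The counts of single transcripts add a limit for a few genes. *Notch1*, *Notch2* and *Dll4* rest on 1 transcript with counts each, and in *Jag1* the main transcript took 97.5% to 99.2% of the gene's counts. In *Dll1* a predicted transcript took 80.4% to 88.2% in every library. In *Jag2*, 3 of its 8 transcripts led in different libraries, and the most abundant of them took from 0% to 96.3% of the counts of the gene. In *Notch3* a predicted transcript took 49.4% in 1 library and a median of 0.00618% over the 12. The gene totals used here do not depend on how the counts were divided among the transcripts of a gene.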

How the data were processed

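RNA was sequenced from pooled mouse gastruloids in 12 libraries, 3 for each of 0x, 1x and 3x glucose and 2-DG. The authors deposited estimated counts per RefSeq transcript. The study's sources name Trim Galore, HISAT2, SAMtools, Picard, StringTie, DESeq2 and mm10, and their versions and the annotation release are not given in the sources used here. Estimated counts can move between transcripts of one gene, so they were added up per gene symbol (120312 transcripts, 38911 genes). Any decimals of a transcript's count were dropped before the sum. The 3 deposited tables of the authors' own comparisons hold log2 fold changes and p-values and were not used.

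Libraries held 31902471 to 45956080 counts (median 35638001). Genes passing filterByExpr (16966) were fitted with edgeR 4.0.16 (R 4.3.3) using TMM factors and the quasi-likelihood test, with all 12 libraries in one model and Benjamini-Hochberg adjusted p-values called under 0.05. The SE is the log2 fold change divided by the square root of F. Passages were compared in the same test with treatment as a covariate. A fit with passage as a replicate block, DESeq2 1.42.0, median-of-ratios factors, no filter, only the compared groups, the most abundant transcript alone and each library left out were alternatives. Leaving out passage 13, and all alternatives for the other pathway genes, were chosen after seeing the data. Scripts were tested on simulated counts. Figures used matplotlib 3.10.9 in Python 3.11.15.

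Replicate numbers are ES cell passages. Deviations of same-passage libraries from their group means correlated at 0.0963 to 0.623 over 18 pairs, and those of other pairs at -0.44 to 0.191 over 36. The 3 deviations of a group add up to 0. A passage difference shared by the groups therefore also lowers the correlations of the other pairs. The passage is shown as a block where it changes a call. P-values measure the spread between these libraries, and an exact permutation test of 3 against 3 cannot go under 0.1. Levels per kilobase divide by the length of 1 RefSeq transcript.

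The 10 genes and all lists were chosen with earlier results of these data known. All 10 are named, along with other pathway genes called in any comparison, the clock genes *Dll3*, *Lfng*, *Hes7* and *Nrarp*, and, for a called gene, the 3 genes with the smallest root mean square difference of centered log2 CPM (mean of at least 1 CPM). *Mfng* was named after its values were seen. Promoter windows are from RefSeq on GRCm38.p6.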

Additional observations from a re-analysis of the deposited data

Results flagged for a closer look

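In 2 of the 10 genes, the passage 13 ratio of 2-DG to 1x glucose had the opposite sign to those of both later passages. For *Notch2* the log2 ratio was 0.40 in passage 13, -0.09 in passage 15 and -0.25 in passage 16. For *Hes5* it was -0.14 in passage 13, 0.02 in passage 15 and 0.24 in passage 16. Each ratio compares 1 library with 1 library, and the difference between passages was not tested.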

How the results depend on the processing

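Of 519 values of single core genes under other settings, 494 kept their direction and side of the threshold or were called in neither fit (56 of the 519 changed sign while called in neither), 13 gained a call, 12 lost one, and 0 changed direction while called. In 2-DG against 1x glucose, 1 core gene was called, and 2 with DESeq2, 2 in a fit of only the compared groups, 0 with the most abundant transcript alone and 0 to 2 when single libraries were left out. In 2-DG against 0x glucose, 2 were called, 1 with the most abundant transcript alone and 1 to 2 with single libraries left out. In both comparisons of glucose levels the count was 0 under every setting run. Between passages, 8 genes differed, and 9 in the libraries without 2-DG, where *Dll4* was added (adjusted p = 0.0464, edgeR). Shares of all genes called are given only for the main fit and the replicate block. The counts under other settings have no such share beside them and cannot be set against one.

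With the passage as a replicate block the counts of core genes called were 4 for 2-DG against 1x glucose and 7 for 2-DG against 0x glucose, and 26 of the other pathway genes were called in 2-DG against 1x glucose, beside 8 without it. The common dispersion was 0.0063 with the block and 0.0316 without it. Of those other genes, 11 were called with DESeq2, 12 without the passage 13 libraries and 7 to 8 with single libraries left out. These counts too have no share of all genes beside them.

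The depth of *Dll4*, at 2 to 19 counts per library, limits the precision of its values. In a fit of only the 3x and 1x glucose libraries *Dll4* did not pass the filter on low counts, so that setting gave no value.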
